A study of Mus musculus with 8 samples.

Results

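mmu-miR-378 and mmu-miR-378* are the opposite arms of 1 miRNA precursor, Mir378a. They were chosen by name, as the non-control features with these systematic names, and are 2 of the 566 mouse miRNAs on the array and 2 of the 189 that could be tested. Each arm had 2 probes, 4 of the 1712 miRNA probes in all, and each of these probes was printed in 10 spots per array. RefSeq's gene annotation of the mouse assembly GRCm38.p6 places Mir378a within the bounds of Ppargc1b. Positions are left out because no build is named in the array files.

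A miRNA precursor is a hairpin from which Dicer cuts a short duplex, and either strand of that duplex can be loaded into an Argonaute protein and repress messenger RNAs. In the older naming used on this array the star marks the arm thought to be the minor one, so miR-378 and miR-378* are the arms now called 3p and 5p of miR-378a. Ppargc1b, the host gene, encodes PGC-1 beta, a transcriptional coactivator of mitochondrial biogenesis and lipid oxidation. In mice, miR-378 has been linked to brown fat expansion and to the control of oxidative metabolism, and skeletal and heart muscle express it as well. RefSeq also lists the precursors Mir378b, Mir378c and Mir378d elsewhere in the mouse genome, and whether the probes for miR-378 also bound their products was not tested.

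The tissue was brown adipose tissue, the fat depot that burns fuel to make heat, from male C57Bl6N mice aged 8 weeks. In the cold group, mice 1 to 3 had spent 24 h at 8 °C, and in the room temperature group mice 4 to 6 had stayed at 21 °C. Total RNA was labelled with Cy3 and hybridised to 1-colour Agilent miRNA arrays, with 2 arrays each for mouse 1 and mouse 4, which gave 8 arrays. The comparison asks how brown fat miRNAs respond to a day in the cold, and p-values rest on n = 3 mice per group.

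All 8 arrays lay on 1 slide. The cold samples occupied 1 row of arrays on that slide and the room temperature samples the other, so place on the slide and group cannot be told apart. The 75th percentile of signal used to scale each array was between 573.7 and 917.6 units on the cold arrays and between 862.8 and 1408 units on the room temperature arrays. Between 175 and 187 mouse miRNAs were well above background on a cold array and between 200 and 227 on a room temperature array. The brown fat miRNAs miR-193b, miR-365 and miR-455 were well above background on all 4 arrays of either group. The striated muscle list (miR-1, miR-206, miR-208b, miR-499, miR-133b, miR-133a and miR-133a*) had a summed scaled signal of 2.14 to 10.7 in the cold mice and 12.3 to 18.2 in the room temperature mice. Its members miR-208b and miR-499 were well above background on 0 of the 4 cold arrays and on 3 of the 4 room temperature arrays.

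miR-378 was higher in the cold mice. Its normalised level, on the log2 scale relative to the 75th percentile of the array, was 1.71 in mouse 1, 2.22 in mouse 2 and 2.02 in mouse 3 of the cold group. At room temperature it was 0.76 in mouse 4, 0.86 in mouse 5 and 1.42 in mouse 6. All 3 cold mice lay above all 3 room temperature mice, and mouse 6 was the nearest to the cold group. The group means were 1.98 ± 0.257 and 1.01 ± 0.357 (SD, n = 3). The log2 difference of cold minus room temperature was 0.97 ± 0.215 (SE), or 1.96-fold, with a limma adjusted p of 0.0219 (Benjamini-Hochberg over 189 miRNAs). By the same test, at a threshold of 0.05, 29 of 189 miRNAs were called (15.3%), with 16 higher in the cold (8.47%) and 13 lower (6.88%). All cold mice exceeded all room temperature mice for 38 of the 189 (20.1%). In bulk tissue, more RNA per cell and more cells of a type that carries the RNA cannot be told apart.

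Before scaling, the difference was smaller. The mean signal of the 2 miR-378 probes was 2525, 4137 and 4332 units in cold mice 1 to 3 and 2182, 2182 and 4342 units in room temperature mice 4 to 6. Mouse 6 then had the highest signal of all 6, so the groups overlapped, with means of 3665 ± 991.8 and 2902 ± 1247 units (SD, n = 3). With no scaling the log2 difference was 0.53 ± 0.411, with a limma adjusted p of 0.443.

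The other arm showed no such separation. The normalised log2 level of miR-378* was −0.49, −0.18 and −0.23 in cold mice 1 to 3. It was −0.77, −0.22 and −0.25 in room temperature mice 4 to 6. The groups overlapped, and mouse 4 was the lowest of all. The log2 difference was 0.11 ± 0.184, with a limma adjusted p of 0.7. In unscaled signal the cold mice averaged 699.6 ± 200.5 units of miR-378*, and the room temperature mice 856.1 ± 312 units (SD, n = 3). Without mouse 4 the log2 difference was −0.066, so its sign rested on that mouse.

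**Figure D1:**
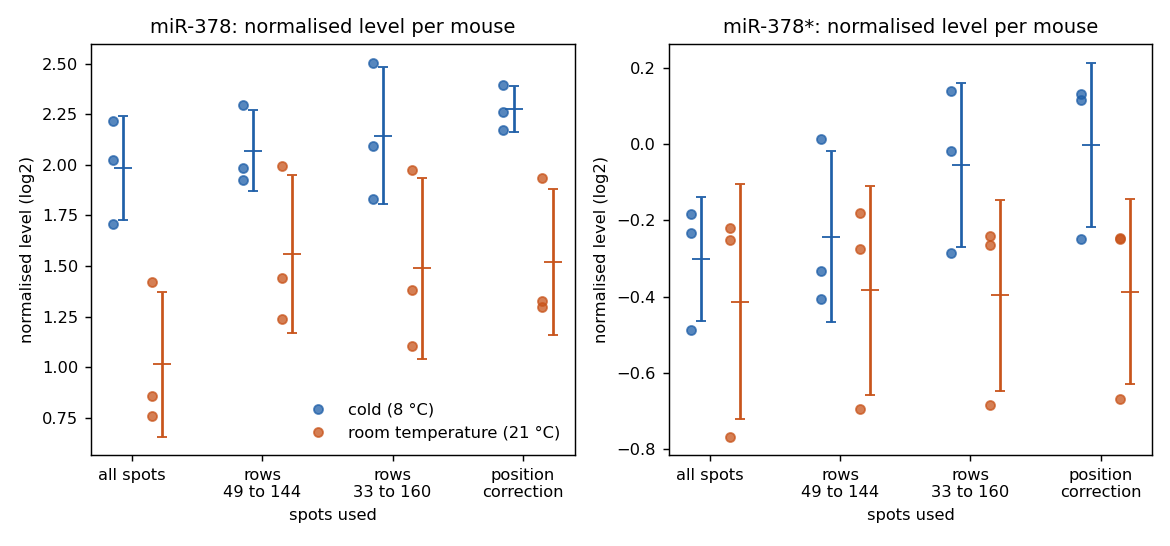
Normalised log2 level of miR-378 (left) and miR-378* (right) in each mouse, cold in blue and room temperature in orange, with the mean and SD of 3 mice beside the points, for all spots and for 3 ways of allowing for spot position on the array. With all spots the cold mice of miR-378 lie between 1.71 and 2.22 and the room temperature mice between 0.76 and 1.42. The miR-378* groups overlap in each of the 4 settings.

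Both probes of miR-378 were higher in the cold. The brighter probe, A_54_P2682, read 2.64, 2.74 and 2.83 (normalised log2) in cold mice 1 to 3 and 1.77, 2.10 and 2.21 in mice 4 to 6. Its groups did not overlap and its cold mice lay close together. The log2 difference was 0.71 ± 0.159, with a limma adjusted p of 0.0216 over 329 probes. The dimmer probe, A_54_P2681, read 0.77, 1.70 and 1.22 in the cold mice and −0.25, −0.38 and 0.64 in the room temperature mice. Its groups did not overlap either, but its values spread more widely within each group. The log2 difference was 1.23 ± 0.324, with a limma adjusted p of 0.0332. Among all 329 probes, 80 passed the threshold (24.3%), 47 of them higher in the cold (14.3%), and 82 had all cold mice above all room temperature mice (24.9%).

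The probes of miR-378* did not share a direction. The log2 difference was −0.07 ± 0.223 for A_54_P3552 and 0.29 ± 0.170 for A_54_P3553, with limma adjusted p-values of 0.862 and 0.253. The gap between the probes of an arm did not separate the groups. For miR-378 the brighter probe exceeded the dimmer by 1.04 to 1.87 on the log2 scale in the cold and by 1.57 to 2.48 at room temperature, a change of −0.52 (exact permutation test over mice, 2-sided, p = 0.3). For miR-378* the gap was 0.93 to 1.20 in the cold and 0.49 to 0.94 at room temperature, a change of 0.36 (exact permutation test, p = 0.2). With 3 mice against 3, the smallest p this test can give is 0.1.

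Both arms were detected on every array. Over the 8 arrays, 73 of the 74 spots used for A_54_P2681 and 74 of 74 for A_54_P2682 were well above background, as were 70 of 76 for A_54_P3552 and 80 of 80 for A_54_P3553. The spots of one probe on one array nevertheless varied widely. The coefficient of variation over the spots was 81.2% to 130% for A_54_P2681 and 47.5% to 95.2% for A_54_P2682. It was 14.6% to 80.5% for A_54_P3552 and 37.7% to 80.8% for A_54_P3553.

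The arrays that shared a mouse show how far a repeat moved these levels. In mouse 1, miR-378 read 1.52 on the first array and 1.90 on the second (normalised log2). In mouse 4 it read 0.98 and 0.55. These gaps of 0.38 and 0.43 came mostly from the dimmer probe A_54_P2681, which moved from 0.35 to 1.20 in mouse 1 and from 0.46 to −0.96 in mouse 4. The brighter probe A_54_P2682 moved from 2.69 to 2.59 and from 1.50 to 2.05. With outlier spots left out, the arrays of a mouse did not always rest on the same spots. A_54_P2681 had 10 spots on the first array and 8 on the second in either mouse. A_54_P2682 had 10 and 6 in mouse 1, and 10 and 10 in mouse 4. The part of these spots in the gaps was not tested. Both arrays of mouse 1 read above both arrays of mouse 4 for miR-378 and for A_54_P2682, whereas for A_54_P2681 the first array of mouse 4 read above the first array of mouse 1. For miR-378* the arrays of a mouse differed by 0.28 in mouse 1 and by 0.01 in mouse 4, with the second array lower in mouse 1.

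The signal of a spot depended on its place on the array, and in a different way in the groups. The spots of an array lie in 192 rows. On the cold arrays the fitted row effect for rows 1 to 8 was −5.69 on the log2 scale, with a range of −6.09 to −5.28 over arrays, against −0.71 on the room temperature arrays. In rows 185 to 192 the order was turned: the row effect was −5.38 at room temperature, with a range of −5.91 to −5.04, and −0.68 in the cold. Spots near the first rows were thus dim on every cold array, and spots near the last rows were dim on every room temperature array. In the plot of signal along the rows the 4 cold curves have a similar shape, as do the 4 room temperature curves. They spread more at the ends. The cold arrays ranged from −1.59 to −0.05 in rows 185 to 192, and the room temperature arrays from −1.27 to −0.37 in rows 1 to 8.

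**Figure D2:**
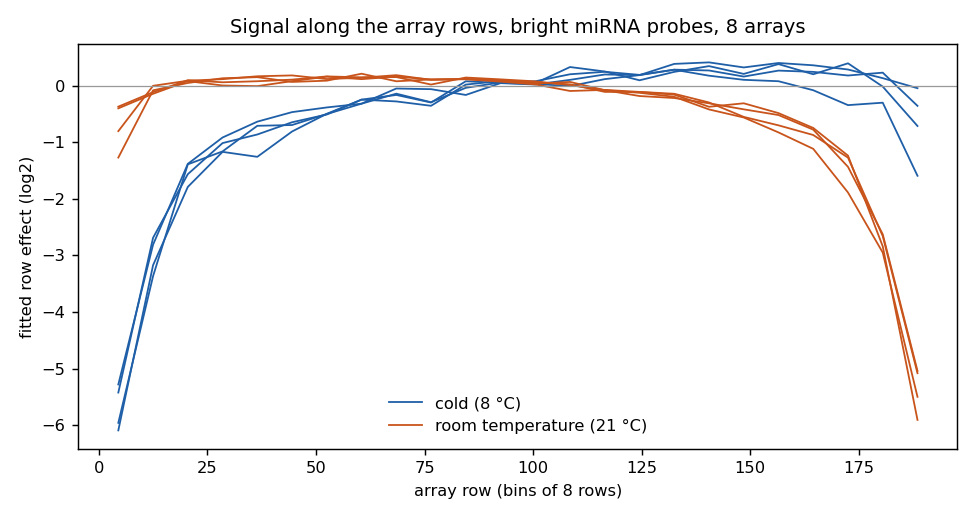
Fitted row effect (log2) against array row in bins of 8 rows, 1 line per array, estimated from bright miRNA probes, with cold in blue and room temperature in orange. The cold lines fall to between −6.09 and −5.28 in the first rows and the room temperature lines to between −5.91 and −5.04 in the last rows.

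miR-378 lies unevenly over these rows. Of its 20 spots, 5 were in rows 1 to 48, 6 in rows 49 to 144 and 9 in rows 145 to 192, so that the last rows held 20 percentage points more of its spots than the first. At least such an excess was found for 25 of the 189 miRNAs, and the median was 0. miR-378* was balanced, with 4 of 20 spots in the first rows, 12 in the middle and 4 in the last rows. Across the 189 miRNAs this excess and the log2 difference between the groups correlated at r = 0.40. That value describes miRNAs that share the same 8 arrays.

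Spot by spot, the difference between the groups followed the row. In rows 145 to 192 all 9 miR-378 spots were brighter in the cold, with a median log2 difference of 2.63 and a range of 1.17 to 4.17. In rows 1 to 48 all 5 were dimmer in the cold, with a median of −2.24 and a range of −2.72 to −1.09. The 6 spots in rows 49 to 144 had a median of 0.33 and ranged from −0.18 to 1.31, and 4 of them were brighter in the cold. miR-378* had the same order: its medians were −1.20 in the first rows, 0.08 in the middle rows (6 of 12 spots brighter in the cold) and 1.42 in the last rows (4 of 4). So did the 329 kept probes together, with medians of −1.63 over 772 spots, 0.04 over 1550 spots and 1.49 over 697 spots.

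Single spots show the size of this. For A_54_P2682, the spot in row 37 averaged 3050 units in cold mice and 8851 at room temperature, whereas the spot in row 178 averaged 7972 in cold mice and 804.3 at room temperature. The same probe in row 82 averaged 5260 in cold mice and 7896 at room temperature before scaling, a log2 difference of −0.16 after it. The sign of the difference thus turned between spots of 1 probe on the same arrays. In row 101 the averages were 7461 and 7083 units, and the scaled log2 difference was 0.57. All of these spots were measured in 3 mice per group. In row 21, with outlier spots left out, A_54_P2682 rests on 1 cold mouse (848.2 units) and 3 room temperature mice (7930 units on average), and A_54_P2681 on 2 mice per group. The largest difference of any spot of either arm, 7.13 for A_54_P3552 in row 192, rests on only 1 room temperature mouse, since the spots of the others were left out as outliers.

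**Figure D3:**
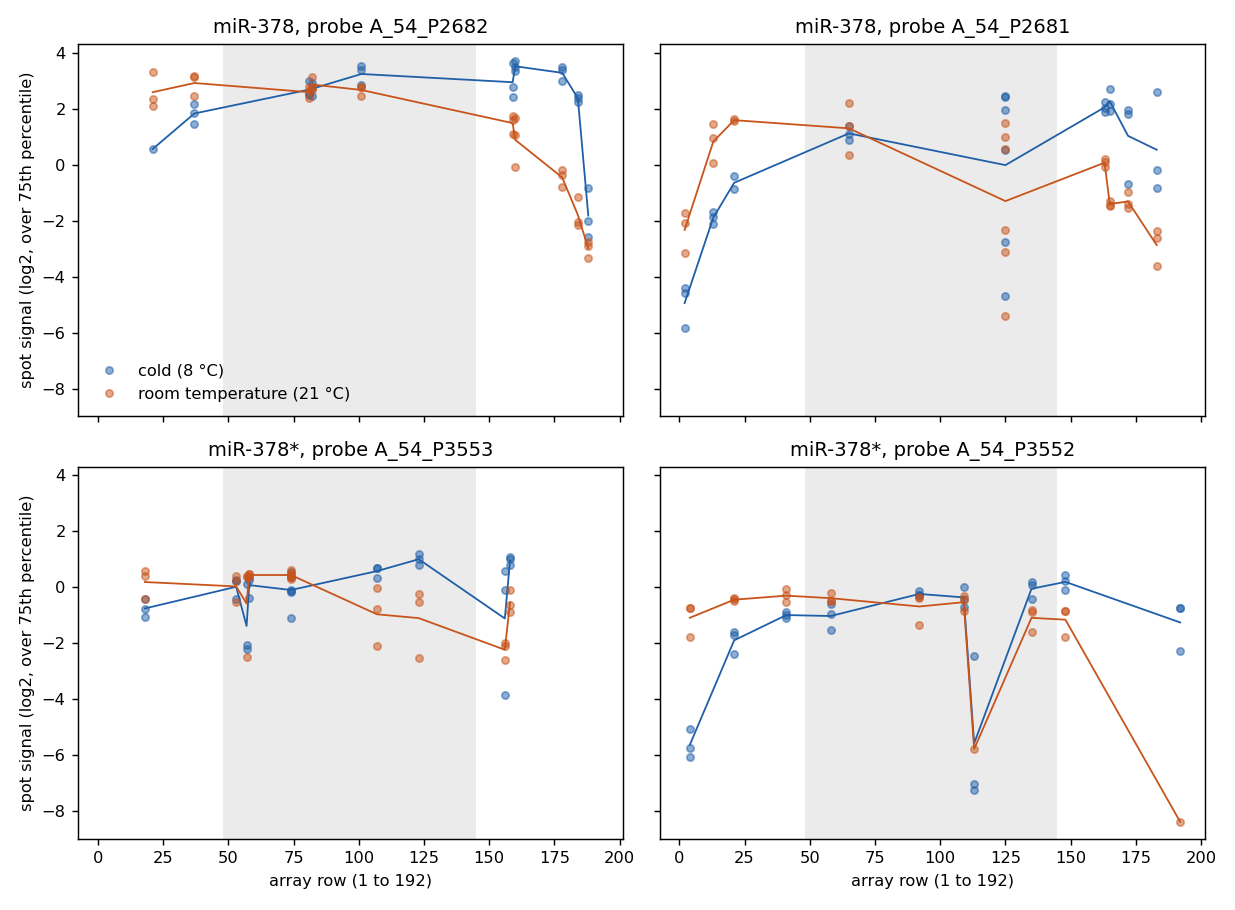
Log2 signal of each spot of the 4 probes, relative to the 75th percentile of the array, against array row; each point is 1 mouse (cold in blue, room temperature in orange), lines join the group means, and the shaded band marks rows 49 to 144. To the left of the band most cold points lie below the room temperature points, to the right most lie above them, and within it the miR-378 spots have a median difference of 0.33.

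Where spots from the outer rows were left out or corrected, the miR-378 difference stayed positive, was smaller and did not pass the threshold. With rows 49 to 144 alone the normalised log2 level was 1.93, 1.99 and 2.30 in cold mice 1 to 3 and 1.24, 1.44 and 2.00 in mice 4 to 6. Mouse 6 then overlapped the cold group. The log2 difference was 0.51 ± 0.220 (limma adjusted p = 0.19), when 18 of 192 miRNAs passed (9.38%). With rows 33 to 160 it was 0.66 ± 0.266 (limma adjusted p = 0.143), when 27 of 193 passed (14%), and mouse 6 again overlapped. With each spot divided by a fitted row and column surface it was 0.76 ± 0.194 (limma adjusted p = 0.0539), when 15 of 202 passed (7.43%). The cold mice read 2.17, 2.40 and 2.26 in that setting and the room temperature mice 1.30, 1.33 and 1.94, without overlap. The share of all miRNAs without overlap was not counted in that setting. With all spots it was 73 of 189 in either direction (38.6%). The median log2 difference over all miRNAs was 0.17 with the surface correction, against −0.02 with all spots. Over all 23 alternative settings the limma adjusted p of miR-378 ran from 0.0127 to 0.443. These 3 settings were chosen after the row pattern was seen. Leaving out the outer rows did not remove that pattern, since the row effect still differed between the groups within rows 49 to 144. In rows 49 to 56 it averaged −0.48 in the cold and 0.13 at room temperature. In rows 137 to 144 it averaged 0.30 in the cold and −0.35 at room temperature. Its part in the remaining miR-378 difference was not tested.

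For both probes of miR-378 the difference was smaller in these settings and did not pass the threshold. Within rows 49 to 144, where each of them has 3 spots, A_54_P2682 differed by 0.24 ± 0.144 and A_54_P2681 by 0.78 ± 0.403 on the log2 scale (limma adjusted p = 0.335 and 0.259). The cold mice of A_54_P2682 still lay above the room temperature mice, at 2.82 to 3.06 against 2.53 to 2.79. The groups of A_54_P2681 overlapped there, at 0.79 to 1.73 in the cold and −0.05 to 1.29 at room temperature. The share of all probes with every cold mouse higher was not counted in these rows. With all spots it was 82 of 329 (24.9%). After the surface correction the log2 differences were 0.48 ± 0.165 and 1.04 ± 0.285 (limma adjusted p = 0.094 and 0.052). Over the 21 alternatives run for probes, the limma adjusted p ran from 0.0196 to 0.685 for A_54_P2682 and from 0.013 to 0.402 for A_54_P2681.

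For miR-378* the difference was larger, not smaller, in the same settings. With all 3, as with all spots, its groups overlapped. Its log2 difference was 0.14 ± 0.189 in rows 49 to 144, 0.34 ± 0.179 in rows 33 to 160 and 0.39 ± 0.176 after the correction, and the limma adjusted p was 0.701, 0.245 and 0.18. The median log2 difference over all miRNAs was also larger there, at 0.06, 0.07 and 0.17, against −0.02 with all spots. Over all 23 alternatives the limma adjusted p of miR-378* ran from 0.18 to 1.

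The call for miR-378 was not kept each time a mouse was left out. Without mouse 2, 3, 4 or 5 the log2 difference was 0.85, 0.95, 0.84 and 0.89, and the limma adjusted p was 0.0933, 0.0788, 0.0519 and 0.0642. Without mouse 1 or mouse 6 it passed, at 1.11 and 1.17. The plot of settings places all of these side by side. The miR-378 difference was above 0 in 23 of 23 alternatives and past the threshold in 12. A fit with a mouse left out rests on fewer mice for every miRNA. In those fits 8 to 33 of the 189 miRNAs passed, against 29 with all mice.

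**Figure D4:**
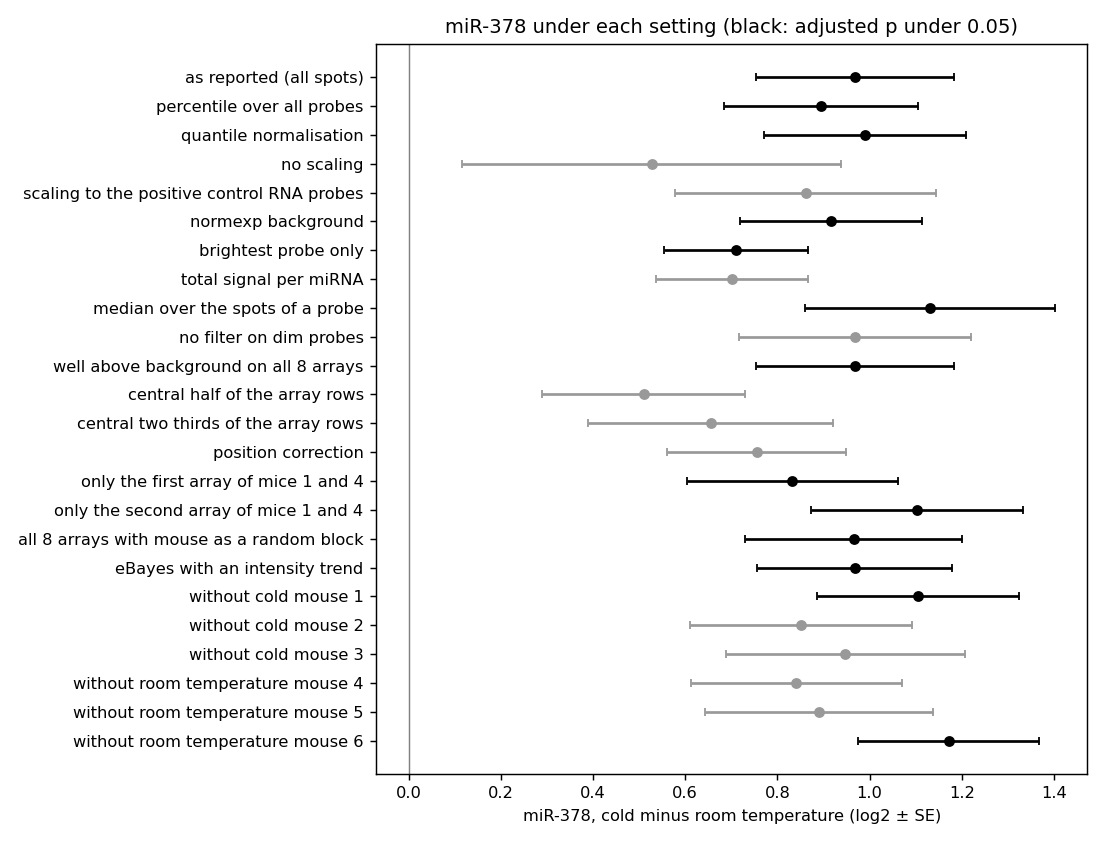
Log2 difference of miR-378, cold minus room temperature, with its SE, as reported and under 23 alternative settings; black marks a limma adjusted p under 0.05 and grey a larger one. The values run from 0.51 (central rows) to 1.17 (without mouse 6).

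The arm ratio, miR-378 over miR-378* within each array, needs no scaling between arrays. It is a ratio of probe signals and not of molecules, so only its change between the groups is read. On the log2 scale it was 2.19, 2.40 and 2.26 in cold mice 1 to 3 and 1.53, 1.08 and 1.67 in room temperature mice 4 to 6. The cold mice lay close together and above every room temperature mouse. The change was 0.86 ± 0.178, or 1.81-fold, with an exact permutation p of 0.1 (2-sided), the smallest that 3 mice against 3 allow. In a limma fit over the 20 pairs of arms in which both arms were measured, the adjusted p was 0.0217. Without mouse 2 the change was 0.80 and the limma adjusted p 0.0643, and with the first arrays of mice 1 and 4 alone they were 0.67 and 0.0734.

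A change of arm ratio was common on these arrays. Of the 20 pairs, 10 passed the limma threshold (50%) and 10 had groups that did not overlap (50%). Only miR-199a-5p over miR-199a-3p (1.46 ± 0.344) and miR-29b over miR-29b* (1.11 ± 0.381) had a larger log2 increase than miR-378 over miR-378*. The pairs of miR-22 (0.80), miR-30a (0.49) and miR-542 (0.41) also rose. The pairs of miR-99b (−0.83), miR-30e (−0.73), miR-574 (−0.67) and miR-362 (−0.37) fell. The smallest change was that of miR-140 over miR-140*, at 0.01.

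The change of the arm ratio was also smaller in the position settings, of which the central rows still held part of the row pattern. Its log2 change was 0.37 ± 0.176 in rows 49 to 144, 0.31 ± 0.190 in rows 33 to 160 and 0.37 ± 0.191 after the correction. The limma adjusted p was 0.173, 0.278 and 0.218, over 19, 21 and 22 pairs. How many of those pairs passed the threshold was not counted. Over all 15 alternatives run for the ratio the limma adjusted p ran from 0.00778 to 0.278. In rows 49 to 144 the cold mice read 2.33, 2.32 and 2.28 and the room temperature mice 1.94, 1.72 and 2.18, still without overlap. The share of pairs without overlap was 10 of 20 with all spots (50%) and was not counted in those rows. In rows 33 to 160 and after the correction, mouse 6 overlapped the cold group. The brighter probe of each arm alone gave a change of 0.42 with a limma adjusted p of 0.0558.

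**Figure D5:**
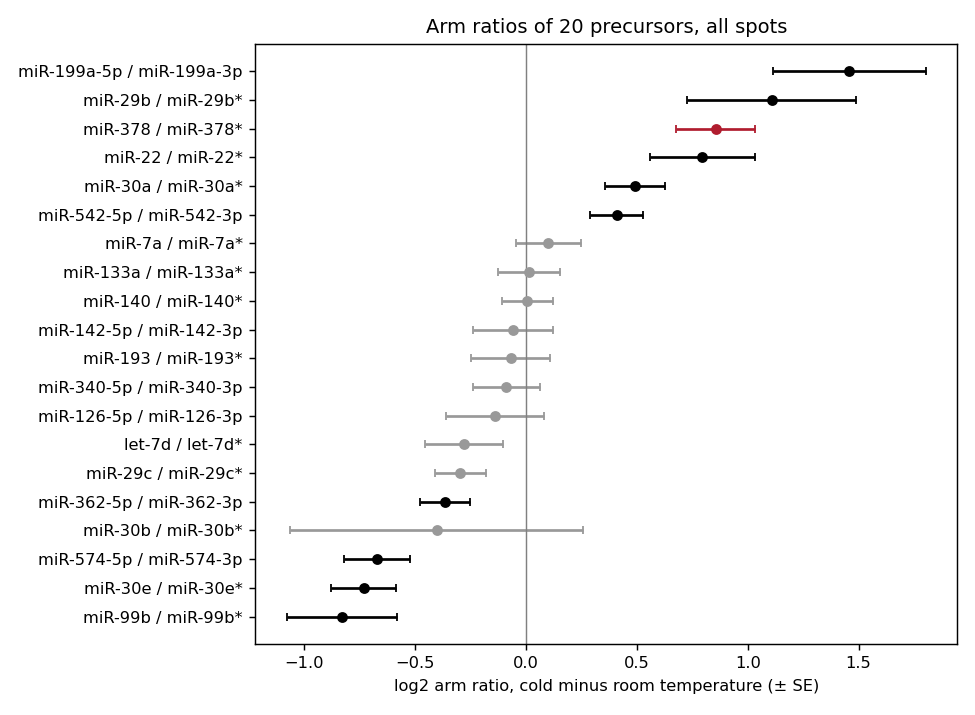
Change in log2 arm ratio, cold minus room temperature, with its SE, for the 20 pairs of arms with all spots; red marks miR-378 over miR-378*, black the other pairs with a limma adjusted p under 0.05 and grey the rest. miR-378 over miR-378*, at 0.86, is exceeded by the pairs of miR-199a and miR-29b.

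By signal, miR-378 was among the brightest miRNAs of this tissue. Among the 566 mouse miRNAs it ranked 10, 7 and 7 in cold mice 1 to 3 and 17.5, 17 and 13 in room temperature mice 4 to 6, where 1 is the brightest and the arrays of a mouse are averaged. Every cold mouse had a better rank than every room temperature mouse. How many of the 566 miRNAs had ranks that separated the groups was not counted. By normalised level the groups did not overlap for 73 of 189 miRNAs (38.6%). For miR-378 itself: the mean ranks were 8 ± 1.73 and 15.8 ± 2.47 (SD, n = 3), with an exact permutation p of 0.1. miR-378 took 2.50% to 3.05% of the summed miRNA signal on the cold arrays and 1.37% to 2.03% on the room temperature arrays. The gap in mean rank of −7.83 shrank to −3.33 in rows 49 to 144, −5 in rows 33 to 160 and −4 after the correction (exact permutation p = 0.2, 0.2 and 0.4).

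miR-378* ranked 43, 38 and 35 in the cold and 48, 39 and 37 at room temperature, and these ranges overlapped (exact permutation p = 0.6). Over all arrays the miRNAs next above miR-378 in mean signal were miR-365 (3395 units) and miR-21 (3270 units), against 3051 units for miR-378, and the next below were miR-23a (2985 units) and let-7d (2648 units). For miR-378*, at 718.6 units, they were miR-15b and miR-10b above and miR-199a-3p and miR-10a below. Probe signals of different miRNAs also depend on the probes, so these neighbours are an order of brightness only.

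Over the 6 mice, the profile most like that of miR-378 was not that of its partner arm. The highest Pearson correlations of normalised log2 level were with miR-193* (0.97), miR-92a (0.96), miR-144 (0.96), miR-451 (0.92) and miR-93 (0.91). The lowest were with miR-199a-3p (−0.94), miR-199b* (−0.96) and miR-29b* (−0.98). miR-378* came 49th of the 188 other miRNAs, at 0.54. These correlations describe 6 mice in 2 groups on shared arrays, so a miRNA that differs between the groups scores high or low for that alone. The excess of spots in the last rows was 20, 15, 10, −5 and 30 percentage points for the 5 most alike miRNAs in the order named.

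Of those 5, miR-144 and miR-451 are made in red cell precursors. The erythroid list (miR-451, miR-144 and miR-486) had a summed scaled signal of 17.8 to 28.7 in the cold mice and 12.7 to 15.8 in the room temperature mice, with 0 of 3 members past the threshold, which 16 of all 189 miRNAs passed upward (8.47%) and 13 downward (6.88%). Striated muscle also makes miR-378, and 4 of 5 measured members of its list fell (miR-206, miR-133b and both arms of miR-133a), with a median log2 difference of −1.89 against −0.02 for all 189 miRNAs. That median was −1.88 in rows 49 to 144, −1.84 in rows 33 to 160 and −1.69 after the position correction, with 0, 3 and 0 of 5 past the threshold. Of the other marker lists, 2 of 3 stromal members fell (miR-199a-3p and miR-214). The threshold was passed by 0 of 5 leukocyte, 0 of 2 endothelial and 0 of 1 liver members. The summed scaled signal of the leukocyte list was 0.691 to 1.12 in the cold and 1.18 to 1.25 at room temperature. For the endothelial list it was 12 to 13.6 and 11.6 to 13.4. The liver member, miR-122, had a log2 difference of −2.71 (limma adjusted p = 0.115). It was well above background on 0 cold and 4 room temperature arrays. The part of blood or muscle RNA in the miR-378 difference was not tested.

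Other miRNAs with a link to brown fat or an intronic origin were set beside the 29 of 189 called in all (15.3%). Of 12 listed miRNAs reported to promote brown fat (miR-378 not among them), 9 were measured. Of these, 1 rose, miR-193b, at a log2 difference of 0.64 ± 0.117 (limma adjusted p = 0.0129), none fell and 8 did not pass. The median over the 9 was −0.02, the same as over all 189. Of 48 listed miRNAs inside introns of protein-coding genes, 33 were measured. The test was passed by 3 that rose (miR-574-3p at 0.82, miR-93 at 0.62 and miR-188-5p at 0.56) and 2 that fell (miR-186 at −1.40 and miR-340-5p at −0.48). The median log2 difference over the 33 was 0.08. A count of 5 of 33 is close to the share called over all miRNAs and is no result about the list.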

How the data were processed

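Brown adipose tissue of 6 mice was measured on 8 1-colour Agilent miRNA arrays. The authors deposited each array's scanner output, in which spot intensity is on a linear scale after background subtraction. The software was Agilent Feature Extraction, version 10.7.3.1 per the file headers and 9.5.3.1 per the submitters' processing notes. The deposited value table held the same intensities (largest difference 0).

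Control spots and outlier spots were left out, no spot was saturated, and the spots of a probe were averaged. Signals were scaled, array by array, to the 75th percentile of the 267 probes well above background on all 8 arrays, floored at 0.01 and put on a log2 scale. Probes with more than 0.5 of their spots well above background on every array of a group were kept (329 of 1712). A miRNA was the mean of its kept probes, and arrays of a mouse were averaged, so that n is 3 mice per group. limma 3.58.1 (lmFit, eBayes, Benjamini-Hochberg, 0.05) in R 4.3.3 compared the groups without covariates. In that fit 62 miRNAs had an unadjusted p under 0.05. The labels give separate mice and no pairing.

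The row and column surface was fitted per array to spots of probes above 200 units, in 24 row bins and 10 column bins. Spots where it was below −1 (log2) were dropped, which left 3 to 7 of 10 spots of A_54_P2681 and 5 to 9 of A_54_P2682. The mean row effect was below −1 in rows 1 to 32 on the cold arrays and in rows 169 to 192 on the room temperature arrays. The spots kept for a probe therefore differed between the groups. Alternatives covered scaling, background (normexp on the median spot and background signals, offset 50), probe and spot summaries, filters, repeat arrays, a mouse block, an eBayes trend and leaving out each mouse.

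miRNAs named beside both arms were taken by rule: the 5 most and 3 least correlated with miR-378, the 2 brightness neighbours on either side, called arm pairs with the extremes, and called list members. The members, lists and tests were chosen with earlier results of these data known. The limma fit was tested on simulated data, as was the surface on an array with a loss of signal in its first rows only. The arm ratio, the ranks, the probe gaps and the dropping of spots were not tested in this way.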

Additional observations from a re-analysis of the deposited data

How the results depend on the processing

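No paired analysis was possible because the mouse numbers are not shared between the groups. In log2 units, miR-378 kept its direction but missed the threshold with no scaling (0.53), control RNA scaling (0.86), the software's total signal (0.70), no filter on dim probes (0.97), rows 49 to 144 (0.51), rows 33 to 160 (0.66) and the position correction (0.76), and ranged from 0.84 to 1.17 with a mouse left out. miR-378* was negative with no scaling (−0.33), with the median over spots (−0.064) and without mouse 4, ranging from −0.066 to 0.21 with a mouse left out. The arm ratio missed the threshold with the brightest probe (0.42), total signal (0.55), first arrays (0.67), rows 49 to 144 (0.37), rows 33 to 160 (0.31) and the correction (0.37), and ranged from 0.68 to 0.98 with a mouse left out. The rank gap was −10.3 with the median over spots, −3.33, −5 and −4 in the position settings, and −9.25 to −7 with a mouse left out. A_54_P3552 turned positive with quantile normalisation (0.070), the position settings in the same order (0.11, 0.24 and 0.21) and first arrays (0.031), and ranged from −0.31 to 0.075 with a mouse left out. A_54_P3553 turned negative with no scaling (−0.15) and the median over spots (−0.0056).

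Of all miRNAs, 29 passed as reported, against 44 with quantile normalisation (22 higher, 22 lower), 11 with no scaling (1 and 10), 3 with control RNA scaling (0 and 3), 6 with normexp, 5 with no filter, 16 when well above background on all 8 arrays was required, 18 in rows 49 to 144, 15 with the correction (14 and 1), and 8 to 33 with a mouse left out. The percentile over all probes gave 11 higher and 17 lower, against 16 and 13. Of the 29, 13 also passed in rows 49 to 144 and 12 with the correction. The median over all miRNAs was −0.46 with no scaling and 0.21 with normexp. The causes were not tested.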
